A study of Homo sapiens with 39 samples.

Results

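CEL encodes carboxyl ester lipase, also called bile salt-stimulated lipase, and it is 1 gene of the 63187 in the deposited count table. It was chosen by its log2 fold change against DMSO under both PARP inhibitors (PARPi), olaparib and talazoparib, in the 5-day treatment panel. Those panel values are therefore given as a description without a test, and tests are given only for other contrasts. Earlier results of these data were known when the gene was chosen, so these tests are not an independent check of the choice. RNA was measured in C4-2B, a castration-resistant prostate cancer line derived from LNCaP, in 39 libraries forming 13 groups of 3. The panel (21 libraries) held DMSO, abiraterone at 5 µM, enzalutamide at 20 µM, olaparib at 1 µM, talazoparib at 10 nM, abiraterone + olaparib, and enzalutamide + talazoparib, all for 5 days. The time course (18 libraries) held DMSO, 1 µM olaparib and 5 µM olaparib, each at day 1 and at day 5. Abiraterone, an inhibitor of androgen synthesis, and enzalutamide, an antagonist of the androgen receptor, are together called ARPi. All groups were grown in the same serum-containing medium, a single cell line stands for each group, and the labels do not say whether the libraries of a group came from separate cultures, so p-values measure the spread between these libraries.

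Carboxyl ester lipase is made by acinar cells of the exocrine pancreas and by the lactating mammary gland. It is secreted into pancreatic juice and milk, and it needs bile salts for its main activity. It hydrolyses cholesteryl esters, triglycerides, retinyl esters and ceramides, belongs to the same protein fold family as the carboxylesterases and cholinesterases, and carries a tandem repeat in its last exon. The prostate is not a known main source of the enzyme. PARPi block repair of DNA strand breaks and trap PARP on DNA, and DNA damage activates p53, whose best known target is CDKN1A, the gene of the cell cycle inhibitor p21.

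In the table CEL is ENSG00000170835.17. On GRCh38 it lies on the forward strand of chr9:133061981-133071861, with 11 exons and 1 annotated transcript of 2381 bases in GENCODE v44. Its pseudogene copy CELP (ENSG00000170827.10) lies 10700 bases downstream on the same chromosome and strand. Both sequences below are shown because they bear on how CEL is read: the first is the window around the only annotated start, and the second is a stretch of exon 8 that CEL and CELP share letter for letter. The RefSeq promoter window (GRCh38.p14, forward strand, chr9:133061731-133062030) spans 250 bases before the annotated start and 50 after it. Capitals mark a match to the NR5A2 core TGACCTTG at -47 and a TATA-like CATAAAT at -29. NR5A2 is a nuclear receptor of pancreatic acinar cells.
CEL promoter: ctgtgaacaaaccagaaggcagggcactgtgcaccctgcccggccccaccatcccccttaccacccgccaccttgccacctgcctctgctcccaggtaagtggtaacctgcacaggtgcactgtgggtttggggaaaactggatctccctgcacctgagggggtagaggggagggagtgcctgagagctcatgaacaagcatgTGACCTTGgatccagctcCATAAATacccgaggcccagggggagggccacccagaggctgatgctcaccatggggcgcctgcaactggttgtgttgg
CEL exon 8, first 60 bases: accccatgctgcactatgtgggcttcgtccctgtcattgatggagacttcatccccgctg

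Letters were searched on both strands in windows of this length at 35116 starts. TGACCTTG occurred in 1.28% of them and CATAAAT in 2.92%, and the spelling of the second was chosen after the CEL sequence had been seen. The CEL window held 5 matches to the E-box CANNTG, a motif present in 68.7% of windows, and the match at -51 overlaps the NR5A2 letters. It held 0 matches to TATAAA (11.5% of windows), 0 to the p53 half-site (6.63%), and 0 to the androgen receptor half-site AGAACA (14.8%). These matches describe letters in the window and do not show that any factor binds there.

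CEL RNA was scarce in DMSO and higher under every treatment. In counts per 1000000 after TMM scaling of all 39 libraries together (CPM), the 9 DMSO libraries lay between 0.685 and 1.13, and the 30 treated libraries lay between 1.82 and 29.8, so no treated library overlapped a DMSO library. The counts of CEL behind the DMSO values were 25 to 47 per library, out of 29707578 to 44893664 reads assigned to genes. The highest mean was 29.0 ± 0.745 (SD, n = 3 here and below) in 5 µM olaparib at day 1. It was followed by 17.5 ± 1.93 in 5 µM olaparib at day 5, 17.3 ± 1.11 in abiraterone + olaparib, 12.5 ± 0.736 in enzalutamide + talazoparib, and 8.10 ± 0.476 in olaparib in the panel.
Below these came 7.62 ± 0.521 in 1 µM olaparib at day 5, 7.02 ± 0.527 in talazoparib, 6.07 ± 0.0623 in 1 µM olaparib at day 1, 3.69 ± 0.319 in abiraterone and 2.11 ± 0.267 in enzalutamide. DMSO stood last, with 1.06 ± 0.109 and 0.988 ± 0.0848 at days 1 and 5 of the time course and 0.815 ± 0.116 in the panel. Going down this order, the libraries of neighbouring groups overlapped in 4 places: 5 µM olaparib at day 5 with abiraterone + olaparib, panel olaparib with 1 µM olaparib at day 5, the latter with talazoparib, and the DMSO groups of the time course with each other. Panel and time course are separate experiments, so their order against each other is a description. Compared per kilobase of transcript, CEL stood at percentile 25.3 of 19204 genes in panel DMSO, at 28.7 in time course DMSO at day 1, at 57.1 under panel olaparib and at 82.1 in 5 µM olaparib at day 1.

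**Figure D1:**
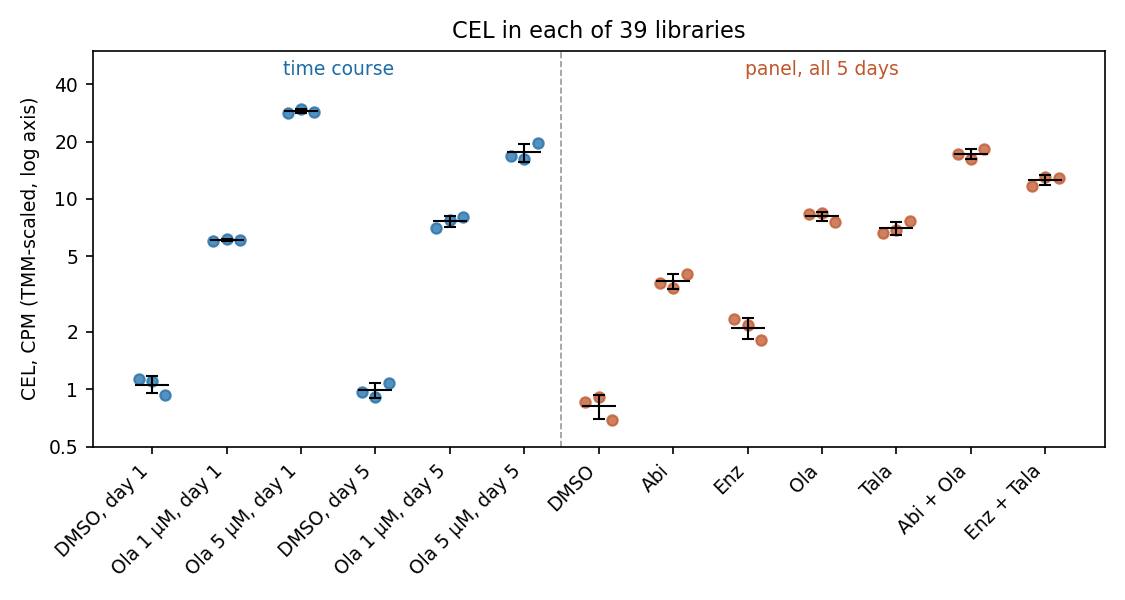
CEL level (CPM after TMM scaling, log axis) in every library of the time course (blue) and of the panel (orange). Points are libraries, and bars give the mean ± SD of 3. DMSO libraries lie between 0.685 and 1.13 CPM, and the highest libraries, 5 µM olaparib at day 1, lie between 28.4 and 29.8.

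The time course asked how olaparib acts by dose and by day, with libraries outside the panel contrasts that chose the gene. CEL rose at both doses on both days, already at day 1. At day 1 the DMSO libraries measured 1.13, 1.11 and 0.934 CPM, those with 1 µM olaparib 6.01, 6.14 and 6.07, and those with 5 µM 28.4, 29.8 and 28.8. At day 5 DMSO measured 0.969, 0.915 and 1.08 CPM, 1 µM olaparib 7.04, 7.78 and 8.05, and 5 µM olaparib 16.7, 16.2 and 19.7. On each day the 3 doses formed 3 groups of libraries with no overlap.
Against DMSO of the same day, the log2 fold change at day 1 was 2.52 ± 0.11 (SE) at 1 µM, which is 5.75-fold, and 4.78 ± 0.093 at 5 µM, which is 27.4-fold (95% interval 24.1 to 31.3). Their adjusted p-values were 4.75e-19 and 1.68e-31 (edgeR quasi-likelihood test, Benjamini-Hochberg over 18502 genes). At day 5 it was 2.93 ± 0.11 at 1 µM (7.64-fold, adjusted p = 2.93e-22) and 4.14 ± 0.099 at 5 µM (17.6-fold, adjusted p = 8.47e-30). The share of all genes tested that were higher at an adjusted p under 0.05 was 6.3% and 21.6% at day 1 and 23.4% and 34.4% at day 5, for 1 and 5 µM.

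Among genes that rose at an adjusted p under 0.05 and averaged 100 counts or more in the treated group, CEL had the largest log2 fold change of 990 in 1 µM olaparib at day 1. It was in place 4 of 3123 at 5 µM on day 1, behind SULF2, an enzyme that edits heparan sulfate, CXCR2, a chemokine receptor, and F8A3, whose near-identical copies make its count uncertain. It was in place 3 of 3459 at 1 µM on day 5, behind TRIM22 and CYP3A5, and in place 21 of 4998 at 5 µM on day 5, directly below CDKN1A. CEL reached 100 counts only through its treated groups. Over all 18502 genes tested, with neither a call nor a count required, it was in place 49 and 34 at day 1 and in place 55 and 90 at day 5, for 1 and 5 µM.

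The dose step and its dependence on the day were tested within the same fit. From 1 to 5 µM, CEL rose 4.77-fold at day 1 (log2 2.25 ± 0.068, adjusted p = 5.71e-25) and 2.30-fold at day 5 (log2 1.20 ± 0.070, adjusted p = 3.57e-17), where 12.8% and 26.6% of all genes were higher. The difference between these steps, a comparison added after the values were seen, was -1.05 ± 0.10 on the log2 scale (adjusted p = 5.44e-11), in a contrast where 19.4% of all genes were lower.
The effect of 5 µM olaparib against DMSO was smaller at day 5 than at day 1 by a log2 of -0.64 ± 0.18 (adjusted p = 0.00224), in a contrast where 27.7% of genes were lower. The effect of 1 µM was larger at day 5 by 0.41 ± 0.18, which did not pass the threshold after adjustment (adjusted p = 0.107, unadjusted p = 0.0391). DMSO itself had 0.935 times the day 1 level at day 5 (95% interval 0.741 to 1.18, adjusted p = 0.759). Scaled to the total count instead of by TMM, the day difference at 5 µM was -0.77, beside a median of -0.153 over all genes.
Compared directly between days, in contrasts also added after the values were seen, CEL in 5 µM olaparib fell by 0.74 ± 0.061 on the log2 scale from day 1 to day 5 (adjusted p = 2.46e-13), where 33.4% of genes were lower. In 1 µM olaparib it rose by 0.31 ± 0.079 (adjusted p = 0.00108), where 25.8% were higher. CEL thus moved in opposite directions between days at the lower and the higher dose, with library ranges that overlap in neither case.

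**Figure D2:**
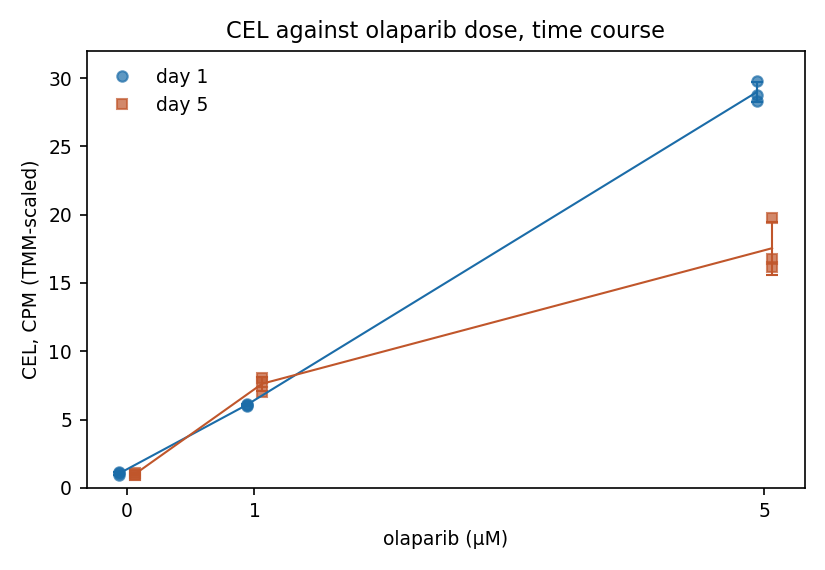
CEL level (CPM after TMM scaling, linear axis) against olaparib dose (0, 1 and 5 µM) at day 1 (blue circles) and day 5 (orange squares), with a point per library and lines through the mean ± SD of 3. At 1 µM day 5 lies above day 1 (7.62 against 6.07), and at 5 µM it lies below (17.5 against 29.0).

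In the panel, the ARPi alone also raised CEL, which the choice of the gene did not use, although these comparisons share the DMSO libraries with those that did. Panel DMSO measured 0.854, 0.907 and 0.685 CPM. Abiraterone measured 3.62, 3.41 and 4.04 CPM, and enzalutamide 2.34, 2.17 and 1.82. Both stood above all DMSO libraries of either experiment and did not overlap each other.
CEL was 4.56-fold higher in abiraterone than in DMSO (log2 2.19 ± 0.15, adjusted p = 3.73e-15 over 18625 genes) and 2.59-fold higher in enzalutamide (log2 1.37 ± 0.16, adjusted p = 2.21e-09). Of all genes tested, 25.8% were higher in abiraterone and 27% in enzalutamide. By the ranking used above, CEL was in place 97 of 3646 in abiraterone, and in place 408 over all genes tested. Enzalutamide gave a lower CEL level than abiraterone by a log2 of -0.81 ± 0.12 (adjusted p = 3.78e-06, 10.1% of genes lower), each at its own dose.

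Adding a PARPi to an ARPi raised CEL further, in libraries that likewise lie outside the contrasts that chose it. Abiraterone + olaparib measured 17.3, 16.2 and 18.4 CPM, 4.69-fold above abiraterone alone (log2 2.23 ± 0.10, adjusted p = 2.20e-18). Enzalutamide + talazoparib measured 11.7, 12.99 and 12.93 CPM, 5.96-fold above enzalutamide alone (log2 2.58 ± 0.11, adjusted p = 9.38e-20). Of all genes, 14.4% and 16.5% were higher in these contrasts, and by the same ranking CEL was in place 4 of 2313 and in place 6 of 2654. Over all 18625 genes tested it was in place 74 and 57.
Directly above it stood APOBEC3H, a cytidine deaminase that restricts retroviruses, in the first, and SULF2 in the second. CEL in enzalutamide + talazoparib was below its level in abiraterone + olaparib by a log2 of -0.47 ± 0.087 (adjusted p = 1.90e-04, 6.71% of genes lower).

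The contrasts that chose the gene read as follows, without a test. Panel olaparib measured 8.29, 8.46 and 7.56 CPM, 10.0-fold above DMSO (log2 3.33 ± 0.13), in place 1 of 3148 called genes at 100 counts or more, with 2.88 for the gene directly below it, ENSG00000251095. Talazoparib measured 6.61, 6.83 and 7.61 CPM, 8.70-fold above DMSO (log2 3.12 ± 0.13), in place 2 of 2934, just below RN7SL2, an RNA of the signal recognition particle with many near copies, and above BIVM-ERCC5, a readthrough transcript with 2.97. Over all 18625 genes tested, CEL was in place 47 in olaparib and 54 in talazoparib. Past the threshold, 19.6% and 18.4% of all genes were higher. Talazoparib at 10 nM stood at 0.867 times olaparib at 1 µM (95% interval 0.759 to 0.990), and the doses of the compounds differ.
The combinations stood 21.4-fold and 15.5-fold above DMSO, and 2.13-fold and 1.78-fold above olaparib and talazoparib alone. The log2 change in abiraterone + olaparib minus the sum of the log2 changes of its drugs was -1.10 ± 0.18. For enzalutamide + talazoparib this difference was -0.55 ± 0.18. Both differences hold for the log2 scale, where a sum of changes is a product of folds, and not for the CPM scale. They also contain the panel olaparib and talazoparib values that chose the gene. Each combination still lay above both of its drugs in every library.

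CELP gave few counts, and its changes passed the test in some of the contrasts in which those of CEL did. Its transcript shares sequence with CEL: of the 2351 windows of 31 bases along the CEL transcript, 675 (28.7%) also occur in transcripts of the CELP locus. Of the 2232 windows of 150 bases, the read length, 343 (15.4%) do. CEL exons 8 and 9 (187 and 204 bases) have 0 differences from CELP exons 2 and 3. The exon 8 stretch printed above is part of that identity, at chr9:133068672-133068731 in CEL and chr9:133084456-133084515 in CELP. A further property is internal: 271 of the CEL windows of 31 bases repeat a window found earlier in the transcript itself.
CELP had 0, 0 and 6 counts in DMSO at day 1, 11, 16 and 11 in 1 µM olaparib and 49, 43 and 54 in 5 µM. At day 5 it had 0 counts in each DMSO library, 5, 7 and 15 in 1 µM and 27, 38 and 25 in 5 µM. In the panel it had 0, 1 and 2 counts in DMSO, 6, 0 and 5 in abiraterone, 6, 4 and 9 in enzalutamide, between 4 and 25 in olaparib, between 2 and 12 in talazoparib, 30, 36 and 15 in abiraterone + olaparib and 18, 6 and 18 in enzalutamide + talazoparib. Against DMSO it was higher past the threshold at both doses and days of the time course (edgeR test, the highest of the 4 adjusted p-values being 0.0107, for 1 µM at day 1). It was higher in abiraterone + olaparib than in abiraterone (adjusted p = 0.00256), but not past the threshold in abiraterone (0.187) or enzalutamide (0.0552) against DMSO, or in enzalutamide + talazoparib against enzalutamide (0.278). CELP made up between 2.6% and 7.39% of the counts of both genes in every group except DMSO at day 5, where it had none. Reads from the identical exons cannot be told apart, so how the CELP counts divide between the genes is uncertain. With the counts of both summed, the log2 fold change at 5 µM was 4.77 at day 1 and 4.20 at day 5.

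Most genes near CEL moved little beside it. Within 500000 bases to each side, 45 other genes are annotated, of which 21 were tested in the time course and 20 in the panel. The nearest upstream gene, GTF3C5, a subunit of the RNA polymerase III factor TFIIIC that ends 3478 bases before CEL, had 1832 to 2199 counts in DMSO at day 1 and 1972 to 2205 in 5 µM olaparib. Its log2 fold change was 0.07 ± 0.035 at day 1 (adjusted p = 0.105) and -0.03 ± 0.036 at day 5 (adjusted p = 0.546). RALGDS, an exchange factor for Ral GTPases 25859 bases downstream, rose by a log2 of 0.48 ± 0.032 at day 1 and 1.33 ± 0.031 at day 5 (adjusted p = 4.89e-15 and 4.46e-30).
RALGDS was also higher in abiraterone (0.65 ± 0.048, adjusted p = 2.27e-13) and in abiraterone + olaparib over abiraterone (0.37 ± 0.045, adjusted p = 1.17e-07). TSC1, a brake on mTORC1, had log2 fold changes of 0.26 and 0.31 at 5 µM on days 1 and 5, and CACFD1 had 0.37 and 1.22.
Counting the 21 tested, CELP included, 9 were higher and 7 lower in 5 µM olaparib at day 1, and 10 were higher and 5 lower at day 5, where 34.4% of all genes were higher and 33.9% lower (21.6% and 23.4% at day 1). With total-count scaling the day 5 split became 8 higher and 9 lower. The median log2 fold change of the 21 was 0.04 and 0.13, against 0.02 and -0.01 over all genes. ADAMTSL2, with 0 to 1 counts per DMSO library, had 11 to 16 in 5 µM olaparib at day 1 and 4 to 8 at day 5. In abiraterone + olaparib over abiraterone, 5 of 20 neighbours were higher and 5 lower, where 14.4% and 14.7% of all genes were.

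**Figure D3:**
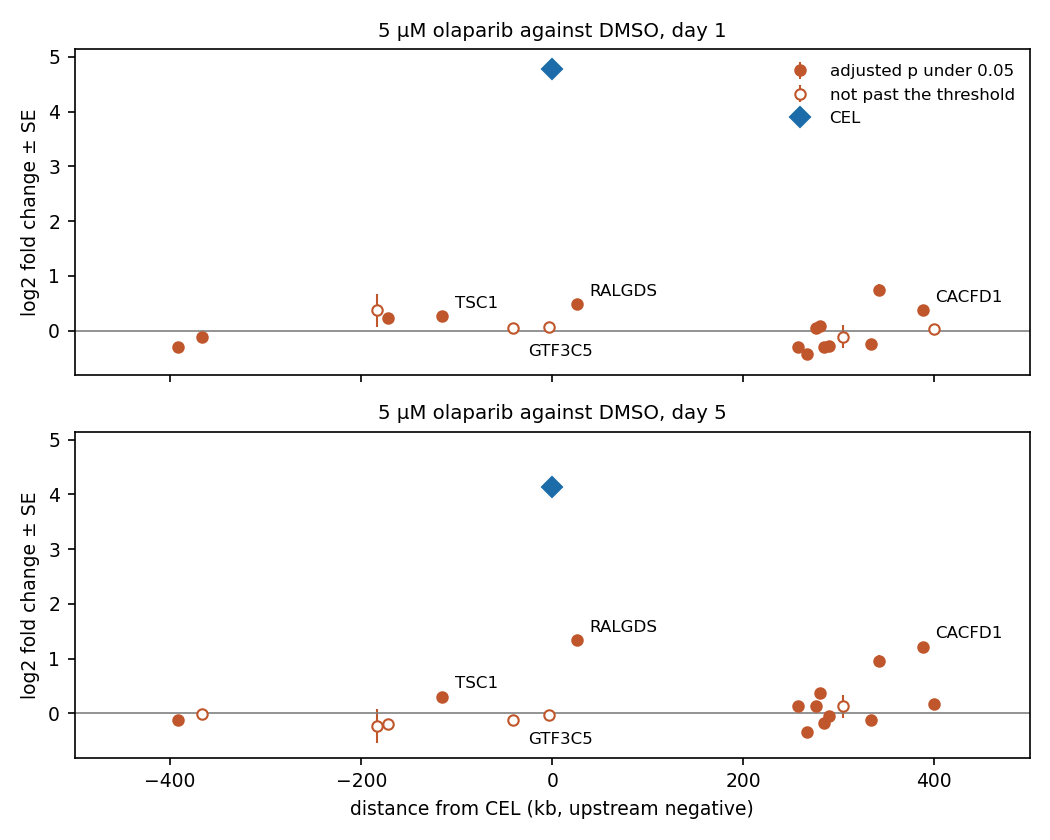
Log2 fold change ± SE of 5 µM olaparib against DMSO at day 1 (top) and day 5 (bottom) for CEL and 19 tested genes within 500 kb, by distance from CEL in kb. CELP and ADAMTSL2, with under 10 counts in each DMSO library, are left out. CEL lies at 4.78 and 4.14, and the plotted neighbours lie between -0.42 and 1.33.

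The 10 genes whose pattern was most like CEL were found by Pearson r over the 39 libraries. Each library's log2 CPM was taken minus the DMSO mean of its experiment and day, and 12374 genes averaging 100 counts or more were compared. These r values are descriptions, since the libraries fall into groups and share treatments and DMSO, and the median r over all genes was -0.056. FRMPD2, a scaffold protein with PDZ domains, came first (r = 0.980), then SPATA18 (0.975), which acts in mitochondrial quality control, PHLDA3 (0.974), an inhibitor of AKT, RPS27L (0.973), a ribosomal protein paralog, and BTG2 (0.971), an antiproliferative factor.
LIF (0.971), a cytokine of the interleukin-6 family, SERPINB5 (0.961), the serpin maspin, GAS6-AS1 (0.960), an antisense RNA, MIR34AHG (0.955), the host transcript of miR-34a, and RINL (0.949), a Rab exchange factor, completed the 10. SPATA18, PHLDA3 and BTG2 are also on the list of p53 targets described below. That list is not complete, so absence from it does not mean that the other genes are not p53 targets. The first 10 depend on the measure: 6 of them remained among the first 10 by Spearman's rho, 4 with the time course alone and 5 with the panel alone.

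CEL moved further than each of the 10 in the 4 contrasts given next, but not in every contrast. From 1 to 5 µM at day 5, RINL had a log2 fold change of 1.22 beside 1.20 in CEL, and in enzalutamide + talazoparib over talazoparib BTG2 had 0.99 beside 0.83. In 5 µM olaparib at day 1 their log2 fold changes ran from 1.45 in MIR34AHG to 3.43 in LIF, beside 4.78 in CEL. At day 5 they ran from 1.12 in MIR34AHG to 3.32 in LIF, beside 4.14. In abiraterone they ran from 0.51 in RPS27L to 1.37 in LIF, beside 2.19, and in abiraterone + olaparib over abiraterone from 0.64 to 1.58, beside 2.23.
The day dependence was not shared by all. At 5 µM the day difference of the olaparib effect was -0.55 in RINL, -0.35 in PHLDA3 and -0.34 in MIR34AHG, near the -0.64 of CEL in direction. It was 0.52 in SPATA18, 0.31 in SERPINB5 and 0.22 in BTG2, in the other direction. The dose step was smaller at day 5 in LIF by a log2 of -0.80, the most of the 10, beside -1.05 in CEL.

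**Figure D4:**
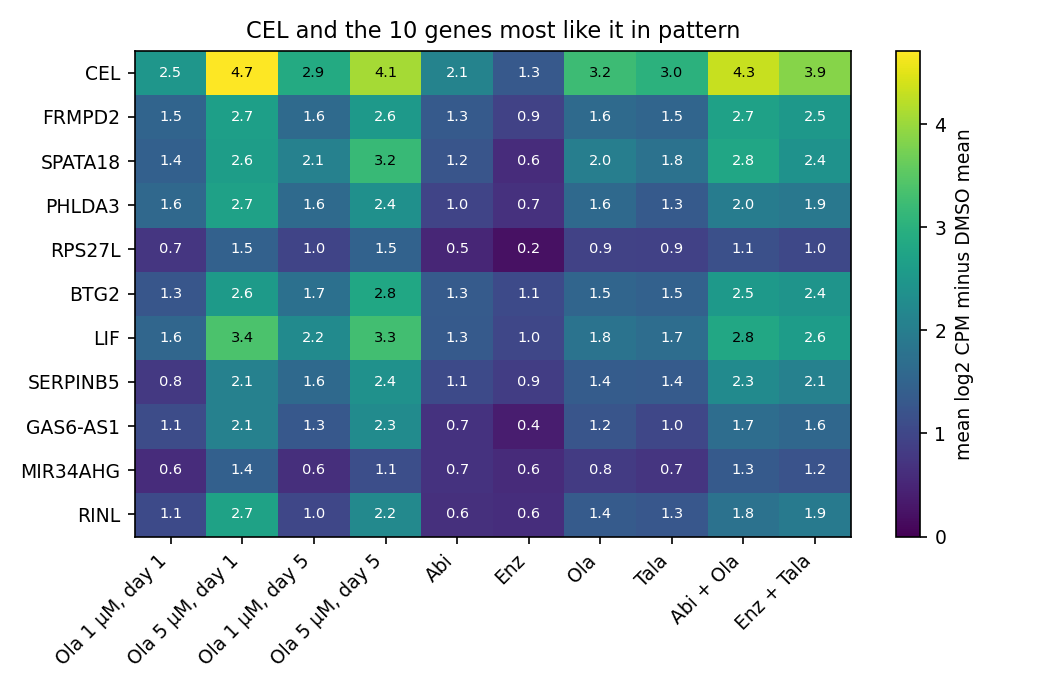
Mean log2 CPM minus the DMSO mean of the same experiment and day, for CEL and the 10 genes most like it (order by r from the top), in the 10 treated groups of 3 libraries each. Values are printed in the cells, and in each column CEL has the highest value. The panel olaparib and talazoparib columns are the groups that chose CEL, so its lead there follows from the choice.

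CDKN1A, which the study uses to read out a PARPi response, was followed in the same libraries. Its r with CEL was 0.931 (39 libraries, place 20 of 12374 genes). At day 1 it measured 55.6, 54.3 and 53.8 CPM in DMSO, 195, 200 and 200 in 1 µM olaparib and 721, 700 and 714 in 5 µM. At day 5 it measured 40.4, 41.7 and 41.0 in DMSO, 225, 229 and 227 in 1 µM and 705, 753 and 745 in 5 µM. Doses did not overlap on either day, and the levels in 5 µM overlapped between the days, where CEL fell.
As ratios of mean CPM to DMSO, CDKN1A reached 13.1 in 5 µM olaparib at day 1 and 17.9 at day 5, beside 27.4 and 17.8 for CEL. Its olaparib effect was larger at day 5 than at day 1 by a log2 of 0.60 ± 0.035 at 1 µM and 0.44 ± 0.034 at 5 µM (adjusted p = 4.26e-16 and 1.12e-13, with 15.6% and 27.2% of genes higher), the second opposite in sign to CEL. Under the ARPi, CDKN1A stood at 1.75 times DMSO in abiraterone and 1.12 times in enzalutamide, where CEL stood at 4.52 and 2.59 times. Whether the genes differ from each other in these contrasts was not tested.

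**Figure D5:**
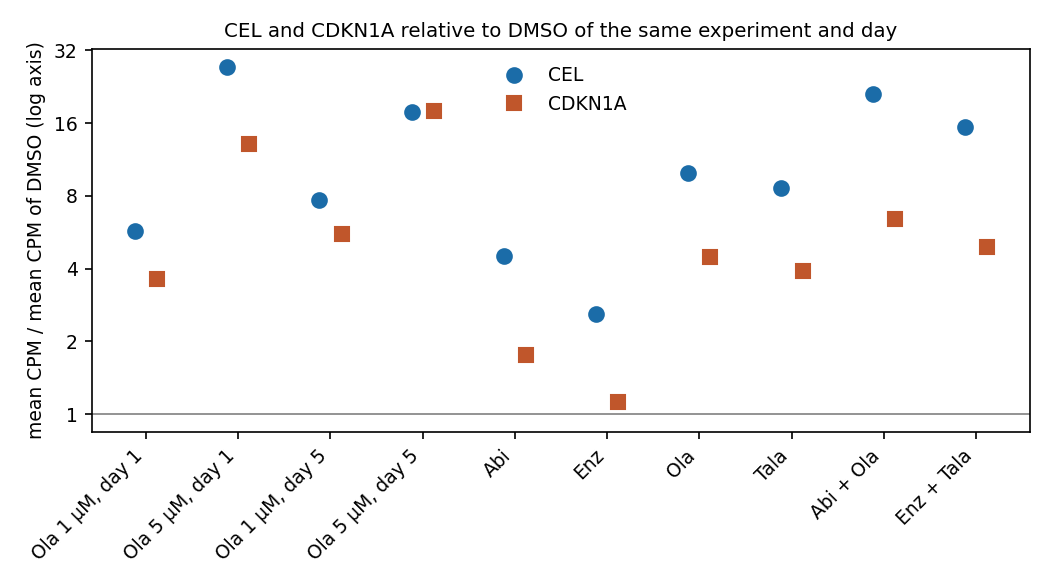
Mean CPM divided by the mean CPM of DMSO of the same experiment and day (log axis), for CEL (circles) and CDKN1A (squares) in the 10 treated groups. CDKN1A lies below CEL in 9 of the groups, and in 5 µM olaparib at day 5 they lie at 17.9 and 17.8. The 9 include panel olaparib and talazoparib, the groups that chose CEL.

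A list of 25 p53 targets gives the setting for this comparison. In each of the 4 olaparib contrasts of the time course, 25 of 25 were higher, with median log2 fold changes of 0.71 and 1.76 at day 1 and 0.64 and 1.20 at day 5, for 1 and 5 µM. Of all genes, 6.3% and 21.6% were higher at day 1 and 23.4% and 34.4% at day 5. CEL exceeded the list's highest member in 3 of these contrasts: CDKN1A with 1.87 and GDF15, a stress-induced cytokine, with 3.71 at day 1, and CDKN1A with 2.46 in 1 µM olaparib at day 5. In 5 µM olaparib at day 5, CDKN1A had 4.15, GDF15 3.30, FAS, a death receptor, 3.27 and SPATA18 3.17, beside 4.14 in CEL.
In abiraterone 16 of the 25 were higher and 5 lower, with a median of 0.33 and BTG2 highest at 1.36, where 25.8% of all genes were higher and 27.1% lower. In enzalutamide 18 were higher and 6 lower, where 27% of all genes were higher and 26.3% lower, and PLK3, a stress-response kinase, was highest at 1.62, above the 1.37 of CEL. In abiraterone + olaparib over abiraterone 24 were higher and 1 lower (14.4% and 14.7% of all genes), and in enzalutamide + talazoparib over enzalutamide 22 were higher and 1 lower (16.5% and 17.9%). At 5 µM the day difference of the olaparib effect was higher in 8 of the 25 and lower in 12, with a median of -0.18, where 27.2% of all genes were higher and 27.7% lower.

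The fold relatives of CEL, which include neuroligins (NLGN genes) and TG besides enzymes, moved in both directions. Of this family, 11 were tested in the time course, with a median log2 fold change of 0.39 in 5 µM olaparib at day 5. There 6 were higher (CES1, TG, CES3, CES4A, CES2 and NLGN4X) and 3 lower (BCHE, NLGN1 and NLGN2). Over all genes tested, 34.4% were higher and 33.9% lower in that contrast, with a median of -0.0083. At day 1, 5 of the 11 were higher and 1 lower, where 21.6% and 23.4% of all genes were. CES1, a liver carboxylesterase, rose by a log2 of 4.06 ± 0.43 (adjusted p = 1.69e-10), from a mean of 4 counts in DMSO to 61, and its mean was 2 counts in 5 µM olaparib at day 1. CES3 rose by 1.81 ± 0.14 (adjusted p = 2.91e-14) at day 5, and by 1.54 ± 0.12 in abiraterone. TG, the precursor of thyroid hormone, rose from a mean of 15.7 counts to 62 at day 5.
BCHE, the plasma cholinesterase, fell by 1.40 ± 0.16 (adjusted p = 5.68e-10) at day 5, and was higher in abiraterone, at a mean of 635 counts against 75 in DMSO (adjusted p = 2.50e-23).

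Of 15 tested genes listed for triglyceride and cholesteryl ester hydrolysis, 9 were higher and 4 lower in 5 µM olaparib at day 5 (34.4% and 33.9% of all genes). Their median was 0.24, and 5 were higher and 4 lower at day 1 (21.6% and 23.4%). The list also holds lipases of mono- and diglycerides, such as MGLL, DAGLA and DAGLB. The counts are therefore not of triglyceride or cholesteryl ester hydrolases alone. PNPLA3 rose by 1.22 ± 0.17 (adjusted p = 6.63e-08) and MGLL, the monoglyceride lipase, by 0.74 ± 0.041 (adjusted p = 5.08e-18). LPL, lipoprotein lipase, fell by 1.24 ± 0.047 (adjusted p = 1.68e-23), and NCEH1, a cholesteryl ester hydrolase, by 0.73 ± 0.038 (adjusted p = 4.55e-19). In abiraterone + olaparib over abiraterone, 1 of the 15 was higher and 3 were lower, where 14.4% of all genes were higher and 14.7% lower.
On the side of ester synthesis and lipid droplets, 9 of 17 were higher and 3 lower at day 5 (34.4% and 33.9% of all genes), with a median of 0.12, and 9 were higher and 4 lower at day 1 (21.6% and 23.4%). PLIN4, a droplet coat protein, rose by 2.14 ± 0.17 (adjusted p = 4.09e-14) and MOGAT2, a monoacylglycerol acyltransferase, by 1.06 ± 0.053 (adjusted p = 9.88e-20).
Of 6 ceramide hydrolases, 3 were higher and 1 lower at day 5 (34.4% and 33.9% of all genes), or 3 and 2 with total-count scaling. At day 1, 1 was higher and 2 lower (21.6% and 23.4%), or 2 and 1 with total-count scaling. ACER2, the Golgi ceramidase, rose by 1.37 ± 0.063 (adjusted p = 7.25e-21), and by 1.17 ± 0.065 at day 1.

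Genes that share CEL's usual tissues were mostly under the filter on low counts. Of 27 other pancreatic enzymes and acinar proteins, 7 were tested in the time course, and in 5 µM olaparib 0 were higher and 2 lower at day 1 (21.6% and 23.4% of all genes), and 2 higher and 3 lower at day 5 (34.4% and 33.9%). GP2, an acinar membrane protein, rose by 2.08 ± 0.17 at day 5 (adjusted p = 1.97e-13), and AMY2B, an amylase whose near copies make its count uncertain, by 2.51 ± 0.49 (adjusted p = 2.88e-05) at 1 to 25 counts per library. In the time course AMY2B reached a mean of 10 counts only in the day 5 olaparib groups. PRSS1, a trypsinogen with near copies, fell by 3.69 ± 0.71 (adjusted p = 2.11e-05) and PNLIPRP3 by 2.21 ± 0.15 (adjusted p = 3.76e-16). Of 5 tested acinar transcription factors, 0 were higher and 3 lower at day 1, and 2 higher and 2 lower at day 5, or 1 and 2 with total-count scaling. At day 5 BHLHA15, a factor of acinar cells, rose by 0.32 ± 0.035 (adjusted p = 2.59e-10) and RBPJ, which acts in Notch signalling, by 0.13 ± 0.035 (adjusted p = 0.00139), and XBP1, a factor of secretory cells, fell by 0.57 ± 0.025 (adjusted p = 1.02e-21). The shares over all genes are those given for the pancreatic list.
NR5A2, whose core motif is marked in the promoter above, had 3 to 20 counts per library. Of 5 tested milk and lactation genes, 2 were higher and 0 lower in 5 µM olaparib at day 1 (21.6% and 23.4% of all genes), LPO, lactoperoxidase, by 0.70 and ELF5, a mammary transcription factor, by 0.37. At day 5, 1 was higher and 3 were lower (34.4% and 33.9%), or 0 and 3 with total-count scaling. There LTF, lactoferrin, fell by 2.29 ± 0.35 (adjusted p = 4.68e-07) and LPO by 1.07 ± 0.29 (adjusted p = 0.00146).

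The labelled cell type was checked against markers. All 11 prostate luminal markers were expressed, and their sum lay between 4235 and 6403 CPM over the 39 libraries. Of 11 pancreatic acinar markers, 6 had at most 3 counts in every library (CPA1, CELA3A, CLPS, AMY2A, PTF1A and RBPJL), and the sum of the 11 lay between 0.557 and 3.27 CPM. That sum was lowest, at 0.557 to 0.656 CPM, in abiraterone + olaparib, and it was 1.03 to 1.64 CPM in the 5 µM olaparib libraries of day 1, where CEL was highest. The mammary markers CSN2, CSN3 and LALBA had a summed level of 0 in all libraries.
The 3 duct markers (KRT19, CFTR and SLC4A4) summed to between 71.7 and 79.1 CPM in DMSO, to 78.5 to 82.7 in 5 µM olaparib at day 1 and to 145.5 to 158.9 in abiraterone + olaparib. KRT19 is a general epithelial keratin and CFTR had 0 to 9 counts per library. With an ARPi the markers moved in opposite directions. Against DMSO, KRT19 had a log2 fold change of -0.79 in abiraterone (adjusted p = 2.45e-11) and -1.15 in enzalutamide (adjusted p = 2.47e-15), and SLC4A4 had 1.04 (adjusted p = 5.88e-20) and 0.85 (adjusted p = 1.56e-17). In abiraterone + olaparib KRT19 had -0.65 and SLC4A4 1.32 (adjusted p = 1.23e-09 and 4.39e-23). In 5 µM olaparib at day 5 both rose, KRT19 by 0.94 and SLC4A4 by 0.60 (adjusted p = 6.59e-22 and 1.19e-11). Their part in the CEL result was not tested.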

How the data were processed

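RNA from C4-2B cells was sequenced in 39 stranded mRNA libraries (KAPA). Trim Galore, STAR on GRCh38 and Salmon with GENCODE v45 were run by the authors to trim, align and quantify. The deposited values are estimated counts as whole numbers, without normalization, and totals ran from 26932205 to 49833473 per library. Gene names and coordinates came from GENCODE v44, which holds 62666 of the 63187 gene IDs, and promoter letters from RefSeq.

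With edgeR 4.0.16 (R 4.3.3), genes passing filterByExpr (minimum count 10) were scaled by TMM and fitted per experiment by robust quasi-likelihood, all groups in one fit without covariates. P-values were adjusted by Benjamini-Hochberg over all genes tested, and the threshold was an adjusted p under 0.05. CPM levels are counts per 1000000 of library size, TMM-scaled over all 39 libraries together, whereas fold changes come from the fit of each experiment. CEL, its companion lists and the tests were chosen with earlier results of these data known. The named genes are CEL, CELP, CDKN1A, tested genes within 500000 bases, the 10 genes most like CEL, list members with the largest changes and genes ranked next to CEL. Genes above CEL in a ranking, NR5A2 and the marker genes were named outside that rule, after their values were seen.

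Replicates of a group had a chi-square over genes of 2.18 to 6.03 per degree of freedom, where reads alone would give about 1. On simulated counts for 5 µM olaparib at day 5 (18138 genes), 94 of 100 genes changed by a log2 of 1 and 100 of 100 changed by 2 were called, with 9 unchanged ones. DESeq2 1.42.0 (Wald test, local fit), other scalings and filters, fits of the compared groups alone, a replicate block, summed CEL and CELP counts, and leaving out each library in turn were the alternatives. An item withheld for evaluation was left out of the lists and is not reported here.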

Additional observations from a re-analysis of the deposited data

Results flagged for a closer look

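Some effects of olaparib differed between days in a test of the difference itself. For CEL, the effect of 5 µM olaparib against DMSO was smaller at day 5 than at day 1 by a log2 of -0.64 ± 0.18 (edgeR quasi-likelihood test, adjusted p = 0.00224). The step from 1 to 5 µM was smaller at day 5 by a log2 of -1.05 ± 0.10 (adjusted p = 5.44e-11), a comparison added after the values were seen.

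For CDKN1A, the effect at 1 µM was larger at day 5 by a log2 of 0.60 ± 0.035 (adjusted p = 4.26e-16) and at 5 µM by 0.44 ± 0.034 (adjusted p = 1.12e-13). Its level in DMSO was lower at day 5 than at day 1, at 40.4 to 41.7 against 53.8 to 55.6 CPM, while CEL in DMSO had overlapping libraries on the 2 days. At 5 µM, CEL and CDKN1A therefore differed between days in opposite directions relative to DMSO.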

How the results depend on the processing

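For CEL, 27 comparisons were recomputed under 435 alternative settings in all, and 435 kept their direction and their side of the threshold (or, without a test, stayed within the spread), with a largest shift of 0.130 on the log2 scale. The day difference at 1 µM, not past the threshold, ran from 0.36 to 0.49 with a library left out, with adjusted p between 0.0657 and 0.232 over all its alternatives. The day difference at 5 µM, past it, ran from -0.73 to -0.56 with a library left out and was -0.77 with total-count scaling, with adjusted p between 3.40e-04 and 0.0168 over all its alternatives. The CEL level in 1 µM olaparib at day 1 (6.07 CPM) was 6.19 with total-count scaling and 6.38 with CELP counts added, and in 5 µM at day 1 (29.0 CPM) it was 30.0 and 30.3. Total-count scaling divides by other library sizes, and adding CELP adds counts. Of the 10 genes most like CEL, 6 stayed among the first 10 with Spearman's rho, 4 with the time course alone and 5 with the panel alone. With a replicate block the day difference at 5 µM was -0.65 (adjusted p = 0.00188), and the block changed no call on CEL. Same-numbered libraries did not deviate together (0 of 63 panel pairs and 0 of 45 time course pairs had a correlation over 0.1, and 18 and 10 were best with their own number), so the numbers were not taken as pairs. The 25 to 47 counts of CEL in DMSO limit the precision of each fold change against DMSO.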

Other observations

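Of 8 other pancreatic enzymes and acinar proteins tested in the panel, 0 were higher and 3 lower in abiraterone than in DMSO (25.8% and 27.1% of all genes), and 1 was higher and 3 lower in enzalutamide (27% and 26.3%). The gene higher in enzalutamide was PRSS1 (log2 1.63 ± 0.33, adjusted p = 6.04e-05, edgeR quasi-likelihood test), which had 0.11 ± 0.35 in abiraterone, and the lower 3 were the same in both. PNLIP, the classical pancreatic triglyceride lipase, had a mean of 58.3 counts in panel DMSO, 70.7 in olaparib and 87.3 in talazoparib, and 0 in abiraterone, enzalutamide and both combinations. PNLIPRP3, a relative of it, had a mean of 226 counts in DMSO, 3.67 in abiraterone and 6.33 in enzalutamide. GP2, an acinar membrane protein, fell from a mean of 23.7 counts in DMSO to 3.33 in abiraterone (log2 -2.70 ± 0.55, adjusted p = 9.01e-05, edgeR quasi-likelihood test), the treatment in which CEL was 4.56-fold higher.

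Among genes of ester metabolism, MOGAT2 was lower in abiraterone by a log2 of -1.97 ± 0.083 (adjusted p = 1.07e-20) and higher in abiraterone + olaparib over abiraterone by 0.81 ± 0.091 (adjusted p = 9.75e-09). BCHE had a mean of 75 counts in panel DMSO, 635 in abiraterone and 598 in enzalutamide, and 56 in olaparib and 80 in talazoparib. LPL was lower both in 5 µM olaparib at day 5 (log2 -1.24 ± 0.047) and in abiraterone (-1.31 ± 0.068, adjusted p = 4.47e-18).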
